A study of Drosophila melanogaster with 4 samples.

Results

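The genes described here encode the machinery that transcribes protein-coding genes in Drosophila melanogaster: RNA polymerase II, the general transcription factors, the Mediator complex, and the factors that pause or release the polymerase. They were chosen by symbol alone (MED, CDK8, RpII, Taf, TfII, Spt, Nelf or NELF, Cdk9, CycT, dre4 and Ssrp), a rule that reads no measured value, although it was set with earlier results of these data known. The choice gave 59 of the 9931 genes in the count table: 5 subunits of RNA polymerase II, 19 general factors, 22 Mediator subunits, 12 pausing or elongation factors and RpIII128, a subunit of RNA polymerase III whose symbol begins with the same letters. Counted among the 12 are Spt3 and Spt20, which are subunits of the coactivator complex SAGA. The patterns read letter case, so that Cdk8 and spt4 stand outside the 59 and are given below with other related genes. Total RNA of salivary glands was sequenced from larvae in the third instar, kept in an incubator at 25°C. JIL-1 null glands carry the genotype JIL-1-/- with the allele Z2, and wild-type glands carry no stated allele or transgene. Each genotype had 2 libraries. The labels give neither the number or sex of the larvae behind a library nor the origin of the 2 libraries of a genotype, so p-values measure the spread between these libraries only, which may be technical.

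RNA polymerase II does not find promoters alone. TFIID, built of the TATA-binding protein and the TAFs, recognises core promoters, TFIIA and TFIIB stabilise it there, TFIIF and TFIIE bring in and prepare the polymerase, and Mediator passes signals from bound activators to this assembly. At many Drosophila genes the polymerase then stops shortly after the start, held by NELF together with Spt5, until the kinase Cdk9 with its partner CycT releases it. FACT, made of the dre4 and Ssrp proteins, and Spt6 handle nucleosomes in its path. JIL-1 is a kinase of histone H3 found at open interbands of the polytene chromosomes of this gland, and whether polymerase II needs it at active genes has been debated.

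JIL-1 itself had 55.5 and 55.8 CPM in JIL-1 null glands, against 93.4 and 76.96 CPM in wild-type glands, where CPM stands for counts relative to the TMM-adjusted library total. Its log2 fold change was -0.61 ± 0.12 (edgeR adjusted p = 0.0147), and -0.61 and -0.64 (edgeR adjusted p = 0.0902 and 0.122) when the first or the second mutant library was left out. Counts per gene do not show which part of the gene these reads came from, so the level is a weak check of the label. Fold changes throughout set JIL-1 null over wild type, with errors that are standard errors from the edgeR fit. Library totals ran from 6222322 to 11369094 counts. The 12 gland markers, led by the Sgs glue genes, held 32.5% and 31.6% of the counts in JIL-1 null and 29.8% and 31.9% in wild type, with 3 called higher and 2 lower by edgeR. Among them PH4alphaSG1 was 17.6-fold higher and Sgs1 had 0.421 times its wild-type level. Genes of other larval tissues were present beside them. The 7 fat body markers held 3.85% and 4.00% of counts in JIL-1 null and 5.87% and 6.33% in wild type, with 1 called higher and 4 lower. The higher one was Lsp1gamma, with 3895 and 4774 CPM in JIL-1 null and 7.36 and 7.59 CPM in wild type, a 578-fold level. The 8 haemocyte markers summed to 169 and 185 CPM in JIL-1 null and 488 and 602 CPM in wild type. Most of this was nimC2, with 90.6 and 109 CPM in JIL-1 null and 366 and 478 CPM in wild type. All 4 that were tested were lower, and eater and nimC1 were at 0 in 1 JIL-1 null library each. The 6 midgut markers summed to 18.1 and 16.3 CPM in JIL-1 null and to 99.2 and 313 CPM in wild type libraries 1 and 2, with 5 lower. Of the 5, LysD, Jon25Bii and epsilonTry had 1.88, 1.25 and 1.88 CPM in wild type library 1. In wild type library 2 they had 76.3, 57.6 and 18.5 CPM. LysP, at 34.3 and 34.1 CPM, and Mal-A6, at 59.8 and 66.1 CPM, were alike in the wild-type libraries. The 6 muscle markers summed to 53.8 and 43.2 CPM in JIL-1 null and 111 and 54.4 CPM in wild type, with 1 lower. For neurons the sums were 31.5 and 28.1 CPM in JIL-1 null and 49.8 and 68.2 CPM in wild type over 4 genes, with 1 lower. Dividing cells, with 5 genes, gave 18.9 and 8.62 CPM in JIL-1 null and 36.2 and 22.8 CPM in wild type, with 2 lower. Testis and ovary markers, 2 genes each, stayed at or under 2.62 CPM in every library, and osk was at 0 in both wild-type libraries. The part of these tissues in the results below was not tested, and in bulk RNA fewer cells of a type and less RNA per cell cannot be told apart.

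The machinery was expressed above the middle of the table. By the authors' deposited RPKM, which give one pooled value per genotype and allow genes of different length to be compared, the 59 genes had a median of 9.51 RPKM in JIL-1 null and 7.51 RPKM in wild type, against 3.25 and 3.19 RPKM over all listed genes. The small subunit of TFIIA, TfIIA-S, stood highest in wild type, at 66.9 RPKM in JIL-1 null and 84.3 RPKM in wild type. The histone-fold TAFs Taf10 and Taf10b followed, at 71.1 RPKM in JIL-1 null and 78.5 RPKM in wild type for the first and 56.1 RPKM in JIL-1 null and 51.2 RPKM in wild type for the second. TAFs of this kind serve in TFIID and in the coactivator complex SAGA. The lowest in wild type were Spt20, Taf7 and Taf1. The TFIID subunit Taf7 had 1.52 RPKM in JIL-1 null and 1.25 RPKM in wild type, Taf1, the scaffold of TFIID, had 1.22 RPKM in JIL-1 null and 1.42 RPKM in wild type, and the SAGA subunit Spt20 had 1.22 RPKM in JIL-1 null and 1.24 RPKM in wild type. Within RNA polymerase II the catalytic subunits RpII215 and RpII140 were close to each other in wild type, at 14.7 and 13.9 RPKM, and RpII33 was at 14.7 RPKM. RpII18 was higher, at 36.4 RPKM in JIL-1 null and 23.02 RPKM in wild type. In wild type Mediator ran from MED1, at 2.40 RPKM in JIL-1 null and 2.16 RPKM in wild type, to MED10, at 18.2 RPKM in JIL-1 null and 22.2 RPKM in wild type. Among pausing and elongation factors Spt5 was the highest, at 32.5 RPKM in JIL-1 null and 24.3 RPKM in wild type.

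**Figure D1:**
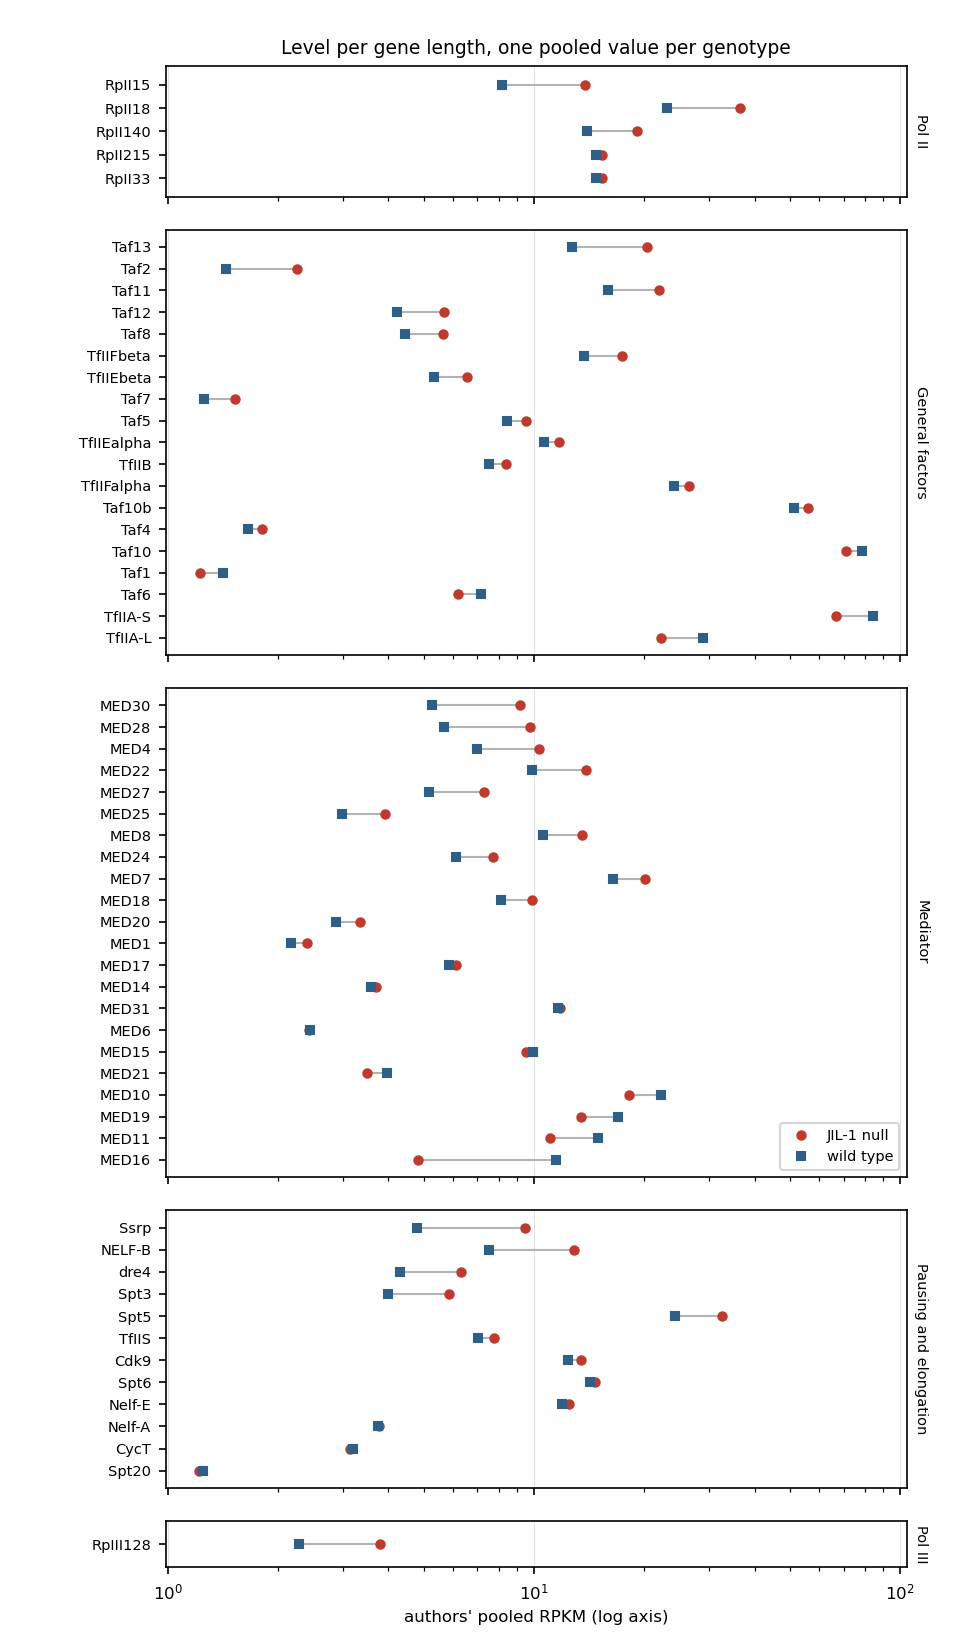
Level per gene length of the 59 genes as the authors' deposited RPKM on a log axis, with red circles for JIL-1 null, blue squares for wild type and one panel per functional class, genes ordered by fold change. TfIIA-S, Taf10 and Taf10b lie farthest right, and MED16 and Ssrp show the widest gaps between genotypes.

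All 59 genes passed the filter on low counts, with between 30 and 1300 counts in each library. Of these, 11 rose and 3 fell in JIL-1 null, and 45 did not pass the test (edgeR quasi-likelihood test, threshold 0.05 for the p-value adjusted by Benjamini-Hochberg over 7958 genes). The called share was 23.7%, below the 30.7% of all tested genes. Higher calls made up 18.6% of the 59 and 13.5% of all genes, and lower calls 5.08% against 17.2%. The changes were small. MED16 was the single gene to change by at least 2-fold, 1.69% of the 59, where 17.8% of all tested genes did so, and every other log2 fold change was at most 0.95 in size. The median log2 fold change was 0.09, against 0.03 over all tested genes. Summed over the 59, the level was 1642.7 and 1685.9 CPM in JIL-1 null, against 1651.9 and 1581.6 CPM in wild type, and the genotypes overlapped. Gene by gene, CPM did not overlap between genotypes for 37 of the 59, or 62.7%, against 70.3% of all tested genes. JIL-1 null was the higher genotype in 27 of the 59 (45.8%) and the lower in 10 (16.9%), against 37.2% and 33.1% of all tested genes. The sign of the log2 fold change, whatever its size, was positive in 38 of the 59, or 64.4%, against 52.6% of all tested genes.

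These counts depend on the libraries and on scaling. Without JIL-1 null library 1 edgeR called 0 higher and 1 lower (6 and 3 at an unadjusted p under 0.05), and without library 2 it called 0 and 1 (4 and 4 unadjusted). No other tool was run on 3 libraries. Over all tested genes edgeR's calls also dropped in these fits, to 343 higher and 724 lower and to 191 and 508. Without wild type library 2 most of the higher calls among the 59 ended, while calls over all tested genes stayed near those of the full fit. The calls that held had log2 fold changes of 0.42 for RpII140, 0.73 for RpII15 and 0.60 for Ssrp. Those of MED16 and TfIIA-L, which also held, were -1.15 and -0.37. All 14 called genes kept their sign in every alternative. Of the calls among the 59 in the full fit 78.6% were higher, and of those among all tested genes 44.0%. The share among the 59 was 93.8% with upper quartile scaling (15 higher, 1 lower), which moved the median of all genes to 0.17, and 90.9% with total count scaling (10 higher, 1 lower), and among all tested genes it was 59.4% and 49.1% with these scalings. DESeq2 called 1 higher and 2 lower, where it called 22.4% of all genes (7.38% higher, 15.1% lower). limma-voom called 11 and 3, and 30.2% of all genes (13.1% higher, 17.1% lower).

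**Figure D2:**
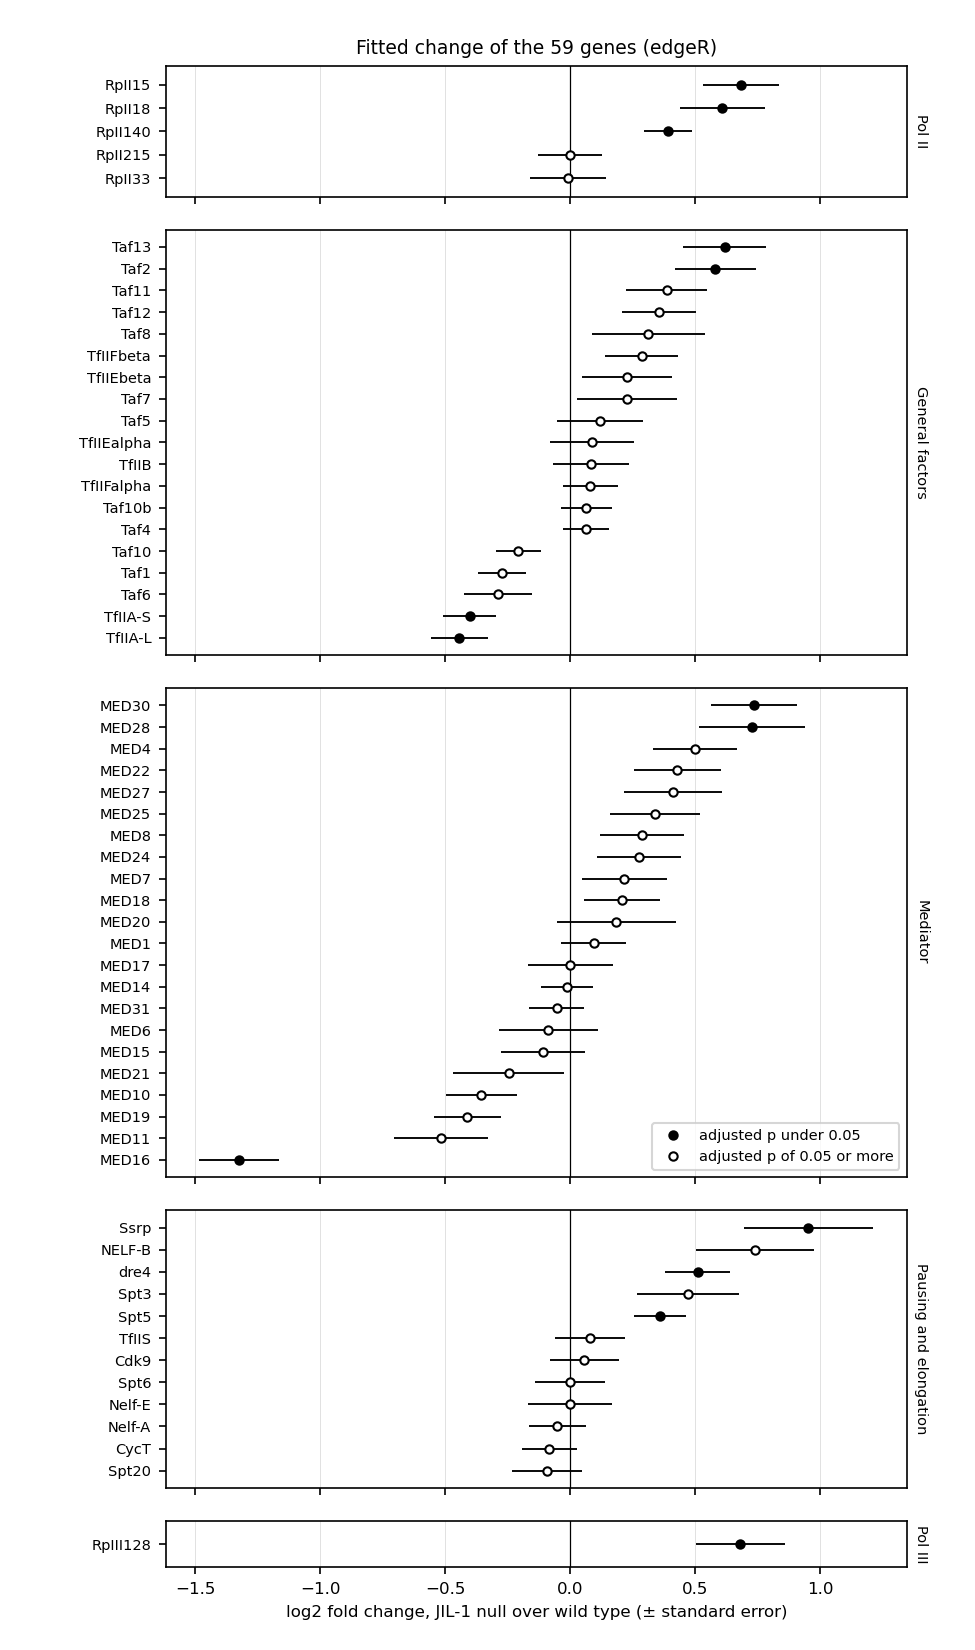
Fitted log2 fold change of each of the 59 genes, JIL-1 null over wild type, with standard error bars, by class, filled where the edgeR adjusted p was under 0.05. The 11 filled points right of 0 lie between 0.36 and 0.95, and the 3 left of 0 are TfIIA-S, TfIIA-L and MED16.

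Of the 5 RNA polymerase II subunits covered by the symbol, 3 rose and 0 fell in edgeR (0 lower also at an unadjusted p under 0.05, in DESeq2 and in limma-voom), and their median log2 fold change was 0.39, where 13.5% of all tested genes rose and the median was 0.03. RpII140, the second largest subunit and part of the active centre, had 69.2 and 72.5 CPM in JIL-1 null glands, against 52.9 and 55.2 CPM in wild-type glands. The genotypes did not overlap, and the log2 fold change was 0.39 ± 0.10 (edgeR adjusted p = 0.0283), a 1.31-fold level. RpII15, the small subunit that contributes to accurate start site choice and proofreading in yeast, had 19.7 and 18.9 CPM in JIL-1 null glands, against 11.6 and 12.4 CPM in wild-type glands. It was 1.61-fold higher, with a log2 fold change of 0.68 ± 0.15 (edgeR adjusted p = 0.0201). RpII18, a subunit shared by all nuclear polymerases, had 19.7 and 19.1 CPM in JIL-1 null glands, against 14.1 and 11.4 CPM in wild-type glands. Both JIL-1 null libraries were above both wild-type libraries, and the log2 fold change was 0.61 ± 0.17 (edgeR adjusted p = 0.0404). By contrast, RpII215, which encodes the largest subunit with the C-terminal repeats that Cdk9 and other kinases phosphorylate, had 96.7 and 107 CPM in JIL-1 null glands, against 111 and 92.1 CPM in wild-type glands. Its genotypes overlapped, with a log2 fold change of 0.00 ± 0.13 (edgeR adjusted p = 0.9996). RpII33, an assembly subunit, had 14.3 and 14.8 CPM in JIL-1 null and 14.4 and 14.9 CPM in wild type and overlapped in the same way (-0.01 ± 0.15). DESeq2 called 0 of the 5 (3 higher at an unadjusted p under 0.05), with adjusted p = 0.117 for RpII140, 0.0799 for RpII15 and 0.143 for RpII18. Across the alternatives their adjusted p spanned 0.00980 to 0.225, 0.00991 to 0.115 and 0.0148 to 0.192, in that order, the highest values being those without JIL-1 null library 2.

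Subunits of the polymerase known by Rpb symbols, taken from a list of related genes, came next. Of 6 measured, 2 rose and 0 fell in edgeR. Rpb10, shared by all nuclear polymerases, had 18.7 and 17.4 CPM in JIL-1 null glands, against 6.89 and 10.00 CPM in wild-type glands, a log2 fold change of 1.08 ± 0.21 (edgeR adjusted p = 0.0138). Rpb5, also shared, had 13.5 and 13.9 CPM in JIL-1 null glands, against 8.30 and 6.58 CPM in wild-type glands (0.88 ± 0.18, edgeR adjusted p = 0.0153). Neither gene overlapped between genotypes. Those that did not pass were Rpb11 (0.97 ± 0.32), Rpb8 (0.71 ± 0.23), Rpb12 (0.29 ± 0.16) and Rpb7 (0.12 ± 0.18), of which Rpb7, with 14.5 and 11.7 CPM in JIL-1 null and 11.4 and 12.5 CPM in wild type, overlapped between genotypes. With both sets, 5 of 11 polymerase II subunits rose, beside 13.5% of all tested genes. RpIII128, the second largest subunit of RNA polymerase III, rose too, with 14.3 and 11.8 CPM in JIL-1 null glands, against 8.45 and 7.85 CPM in wild-type glands and a log2 fold change of 0.68 ± 0.18 (edgeR adjusted p = 0.0340; 0.171 in DESeq2, 0.0750 without wild type library 2). So did both tested subunits of RNA polymerase I, RpI1 and RpI135, which were called in 8 of 12 and 7 of 11 alternatives. RpI135 had few reads, with 32 and 53 counts in JIL-1 null and 11 and 5 in wild type. RpI1, the largest, had 12.9 and 13.7 CPM in JIL-1 null glands, against 8.92 and 6.71 CPM in wild-type glands (0.77 ± 0.19), and RpI135, the second largest, had 3.96 and 4.48 CPM in JIL-1 null glands, against 1.72 and 0.633 CPM in wild-type glands (1.88 ± 0.48), with edgeR adjusted p = 0.0292 and 0.0320.

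Among the 19 general factors 2 rose and 2 fell, 21.1% of them against 30.7% of all tested genes, and the median log2 fold change was 0.09 against 0.03. The genes that rose were TAFs. Taf13, a histone-fold subunit of TFIID, had 12.98 and 12.1 CPM in JIL-1 null glands, against 8.77 and 7.59 CPM in wild-type glands, a log2 fold change of 0.62 ± 0.17 (edgeR adjusted p = 0.0372). Taf2, a large subunit that contacts the initiator, had 18.4 and 16.3 CPM in JIL-1 null glands, against 11.3 and 11.9 CPM in wild-type glands (0.58 ± 0.16, edgeR adjusted p = 0.0404). Taf13 was 1.53-fold and Taf2 1.49-fold higher, without overlap between genotypes. Taf13 shares 10.4% of its exon bases with Pyroxd1 on the other strand in a later annotation, and Taf2 shares 2.09% with CG34382. Taf11 and Taf12 did not pass the test. Taf11, which pairs with Taf13, had 17.9 and 17.3 CPM in JIL-1 null and 12.4 and 14.6 CPM in wild type (0.38 ± 0.16, edgeR adjusted p = 0.121), and Taf12 had 17.3 and 17.4 CPM in JIL-1 null and 13.3 and 13.8 CPM in wild type (0.36 ± 0.15, edgeR adjusted p = 0.118), and neither overlapped. Taf4, the core TAF that pairs with Taf12, had 67.2 and 65.98 CPM in JIL-1 null and 64.5 and 63.04 CPM in wild type (0.06 ± 0.09), and Taf5 had 21.1 and 22.9 CPM in JIL-1 null and 23.01 and 17.7 CPM in wild type (0.12 ± 0.17). Taf1 had 39.8 and 40.6 CPM in JIL-1 null and 50.7 and 46.6 CPM in wild type (-0.27 ± 0.10, edgeR adjusted p = 0.0782). The other TAFs of the symbol rule had log2 fold changes of -0.29 for Taf6, -0.21 for Taf10, 0.06 for Taf10b, 0.23 for Taf7 and 0.31 for Taf8, and did not pass. Of the 12 TAFs caught by the symbol, then, 2 rose (16.7%) and 0 fell in edgeR. At an unadjusted p under 0.05, 1 of them was lower. Over all tested genes 13.5% rose and 17.2% fell. Outside the symbol rule, bip2 fell, as given below, and e(y)1, named Taf9 in the current annotation, did not pass (0.22 ± 0.16).

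Both subunit genes of TFIIA fell. TfIIA-L, whose product is cleaved into the large subunits of TFIIA, had 95.2 and 107 CPM in JIL-1 null glands, against 131 and 144 CPM in wild-type glands, a log2 fold change of -0.44 ± 0.11 (edgeR adjusted p = 0.0311). TfIIA-S, the small subunit, had 38.3 and 42.2 CPM in JIL-1 null glands, against 50.7 and 55.8 CPM in wild-type glands (-0.40 ± 0.11, edgeR adjusted p = 0.0350). Neither overlapped between genotypes. TfIIA-L was called in 8 of 12 alternatives and TfIIA-S in 5 of 12, with the sign unchanged. Both calls ended with upper quartile scaling (edgeR adjusted p = 0.0732 for TfIIA-L and 0.0923 for TfIIA-S) and with total count scaling (0.0700 and 0.0824). That of TfIIA-S also ended with no filter (edgeR adjusted p = 0.0519) and in DESeq2 (adjusted p = 0.0951). Across the alternatives their adjusted p spanned 0.0115 to 0.223 for TfIIA-L and 0.0220 to 0.227 for TfIIA-S. Taf13 was called in 7 of 12 alternatives and Taf2 in 6 of 12. Their calls ended in DESeq2 (adjusted p = 0.228 and 0.180) and with the replicate block (edgeR adjusted p = 0.0509 and 0.0645). The 2 calls also ended without wild type library 2, where the log2 fold changes were 0.51 for Taf13 and 0.62 for Taf2. None of the other 5 TFII factor genes passed. TfIIB, which links the promoter complex to the polymerase, had 22.5 and 26.95 CPM in JIL-1 null and 21.9 and 24.8 CPM in wild type (0.08 ± 0.15), and shares 26.8% of its exon bases with TBC1D16 on the other strand, so that its reads may include some of that gene. The TFIIF subunits gave 0.08 ± 0.11 for TfIIFalpha and 0.28 ± 0.15 for TfIIFbeta, and the TFIIE subunits 0.09 ± 0.17 for TfIIEalpha and 0.23 ± 0.18 for TfIIEbeta. Outside the symbol rule, the TATA-binding protein gene Tbp had 13.6 and 14.02 CPM in JIL-1 null and 9.24 and 13.4 CPM in wild type (0.28 ± 0.21, edgeR adjusted p = 0.358). Xpd, a helicase of TFIIH, rose, with 11.9 and 12.8 CPM in JIL-1 null glands, against 7.98 and 7.47 CPM in wild-type glands (0.68 ± 0.16, edgeR adjusted p = 0.0246). The other TFIIH genes did not pass and had log2 fold changes of 0.00 for hay, 0.24 for Ssl1, 0.38 for Tfb1, 0.54 for Tfb4, 0.11 for Cdk7, 0.56 for CycH and 0.33 for Mat1. The TFIID subunit gene bip2, named Taf3 in the current annotation, fell, with 53.9 and 55.00 CPM in JIL-1 null glands, against 78.3 and 93.04 CPM in wild-type glands (-0.65 ± 0.12, edgeR adjusted p = 0.0101). Of the testis counterparts of TAFs mia was analysed, and it stayed under 3 CPM (1.36 and 2.62 CPM in JIL-1 null and 1.10 and 1.01 CPM in wild type).

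**Figure D3:**
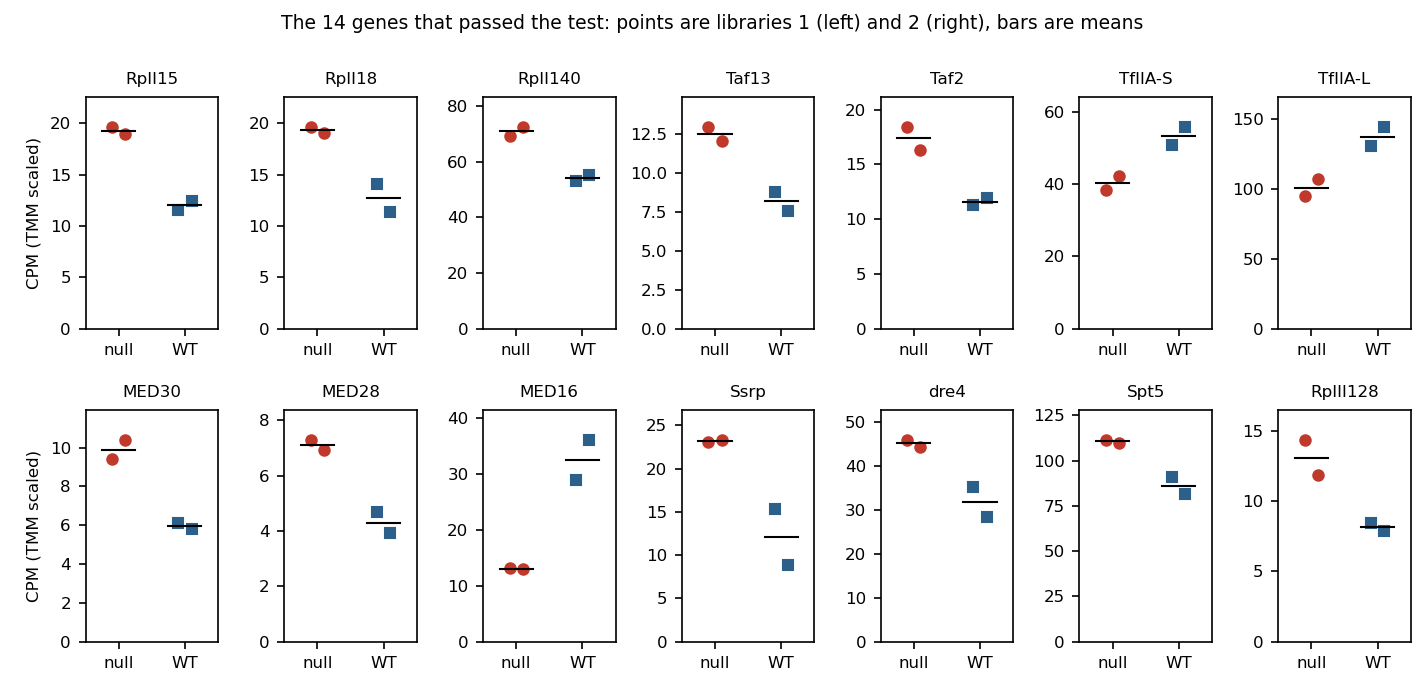
CPM of the 14 genes that passed the edgeR test, each panel with its own axis from 0, JIL-1 null libraries as red circles on the left, wild-type libraries as blue squares on the right and bars at the mean of the 2 libraries. No panel shows overlap; the wild-type libraries of Ssrp lie at 15.3 and 8.86 CPM.

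Mediator held the gene with the largest change. MED16, a tail subunit, had 13.1 and 12.9 CPM in JIL-1 null glands, against 28.96 and 36.1 CPM in wild-type glands. Both wild-type libraries lay far above both JIL-1 null libraries, and the log2 fold change was -1.32 ± 0.16 (edgeR adjusted p = 0.00267), a level 0.400 times that of wild type. It was called in every alternative, with adjusted p from 2.37e-06 to 0.0451, and its exons overlap no other annotated gene. MED30 had 9.40 and 10.4 CPM in JIL-1 null glands, against 6.10 and 5.82 CPM in wild-type glands, a log2 fold change of 0.73 ± 0.17 (edgeR adjusted p = 0.0245). MED28 had 7.29 and 6.93 CPM in JIL-1 null glands, against 4.70 and 3.92 CPM in wild-type glands (0.72 ± 0.21, edgeR adjusted p = 0.0461). Both lack a counterpart in the Mediator of budding yeast, and both were higher without overlap between genotypes. MED30 was called in 8 of 12 alternatives and MED28 in 3 of 12, and their adjusted p ran from 0.0129 to 0.199 and from 0.0253 to 0.291. In DESeq2 they had adjusted p = 0.191 and 0.291. Those 3 genes were 13.6% of the 22 subunits, against 30.7% of all tested genes called, and the median log2 fold change of Mediator was 0.14.

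The remaining Mediator subunits did not pass the edgeR test. In the head, which binds the polymerase, 0 of 7 were called (at an unadjusted p under 0.05 there were 1 higher and 1 lower, and DESeq2 and limma-voom called 0). MED17, the central head subunit, had 11.9 and 13.01 CPM in JIL-1 null and 12.5 and 12.4 CPM in wild type (-0.00 ± 0.17). MED22 and MED8 had log2 fold changes of 0.43 ± 0.18 and 0.29 ± 0.17, MED18, MED20 and MED6 of 0.21 ± 0.15, 0.18 ± 0.24 and -0.09 ± 0.20, and MED11, the lowest, had 8.65 and 6.84 CPM in JIL-1 null and 10.5 and 11.5 CPM in wild type (-0.52 ± 0.19, edgeR adjusted p = 0.0836). In the middle module 0 of 7 were called (1 higher and 2 lower unadjusted; DESeq2 and limma-voom 0). MED4 had 9.40 and 9.63 CPM in JIL-1 null and 7.04 and 6.46 CPM in wild type (0.50 ± 0.17, edgeR adjusted p = 0.0691) and MED7 0.22 ± 0.17. MED19 and MED10 stood on the other side, at -0.41 ± 0.13 and -0.36 ± 0.14, and neither overlapped between genotypes. MED1, which binds nuclear receptors in mammals, had 31.6 and 34.7 CPM in JIL-1 null and 33.97 and 28.5 CPM in wild type (0.09 ± 0.13). MED31 was at -0.05 ± 0.11 and MED21 at -0.25 ± 0.22. MED21 shares 26.6% of its exon bases with Set1 on the other strand. MED14, the scaffold that joins the modules, had 35.2 and 38.9 CPM in JIL-1 null and 37.9 and 37.2 CPM in wild type (-0.01 ± 0.10), with overlap between genotypes. The tail subunits MED15, MED24 and MED25 had log2 fold changes of -0.11 ± 0.17, 0.27 ± 0.17 and 0.34 ± 0.18, and MED27 one of 0.41 ± 0.20. The kinase module, listed among related genes, had 0 of 4 called (0 at an unadjusted p under 0.05, and 0 in DESeq2 and limma-voom). Its kinase Cdk8 had 5.19 and 5.83 CPM in JIL-1 null and 5.32 and 7.34 CPM in wild type (-0.20 ± 0.24), its cyclin CycC -0.06 ± 0.18, and the large subunits kto and skd 0.03 ± 0.10 and -0.23 ± 0.10.

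The 12 genes counted as pausing and elongation factors include the SAGA subunits Spt3 and Spt20, neither of which was called. Of the 12 genes 3 rose and 0 fell in edgeR (0 lower also unadjusted and in DESeq2 and limma-voom), beside 13.5% of all tested genes called higher, and the median log2 fold change was 0.07. Both subunits of FACT were among them. Ssrp, its DNA-binding subunit, had 23.1 and 23.3 CPM in JIL-1 null glands, against 15.3 and 8.86 CPM in wild-type glands, the largest increase of the 59, with a log2 fold change of 0.95 ± 0.26 (edgeR adjusted p = 0.0377). The JIL-1 null libraries were close together and the wild-type libraries far apart. Without wild type library 1 the log2 fold change was 1.38, and without library 2 0.60 (edgeR adjusted p = 0.00114 and 0.0346; 0.00114 to 0.197 over all alternatives). Ssrp was the 1 gene of the 59 that DESeq2 called higher (adjusted p = 0.0266). dre4, the Spt16 subunit, had 45.99 and 44.4 CPM in JIL-1 null glands, against 35.4 and 28.4 CPM in wild-type glands (0.51 ± 0.13, edgeR adjusted p = 0.0313), and without wild type library 2 it had 0.35 and adjusted p = 0.0666. Spt5, which with its partner spt4 forms DSIF on the elongating polymerase, had 111 and 109.8 CPM in JIL-1 null glands, against 91.1 and 81.4 CPM in wild-type glands (0.36 ± 0.10, edgeR adjusted p = 0.0456). Without wild type library 2 its log2 fold change was 0.28 (edgeR adjusted p = 0.0853), and it was called in 5 of 12 alternatives. The partner spt4 had 21.4 and 22.2 CPM in JIL-1 null and 19.9 and 19.2 CPM in wild type and did not pass (0.16 ± 0.14, edgeR adjusted p = 0.414).

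None of the 3 NELF genes among the 59 passed the edgeR test (with p under 0.05 before adjustment 1 was higher and 0 lower, DESeq2 called 0, and limma-voom called NELF-B alone). NELF-B had 25.3 and 29.9 CPM in JIL-1 null glands, against 20.5 and 12.9 CPM in wild-type glands, with a log2 fold change of 0.74 ± 0.24 that missed the threshold (edgeR adjusted p = 0.0598). Without wild type library 1 it was 1.09 (edgeR adjusted p = 0.00425), and without library 2 0.44 (edgeR adjusted p = 0.0945), over a range of alternatives from 0.00425 to 0.331. Nelf-A had 34.7 and 34.1 CPM in JIL-1 null and 38.4 and 33.2 CPM in wild type (-0.05 ± 0.11), and the RNA-binding subunit Nelf-E had 14.2 and 15.9 CPM in JIL-1 null and 13.9 and 16.2 CPM in wild type (-0.00 ± 0.17), both with overlap. TH1, the gene of the NELF-D subunit, had 36.7 and 42.2 CPM in JIL-1 null and 56.98 and 46.3 CPM in wild type (-0.38 ± 0.14, edgeR adjusted p = 0.0819). The genes of the release kinase did not pass the test. Cdk9 had 19.4 and 19.5 CPM in JIL-1 null and 19.1 and 18.4 CPM in wild type (0.06 ± 0.14), and CycT had 60.6 and 60.8 CPM in JIL-1 null and 69.03 and 59.9 CPM in wild type (-0.08 ± 0.11). Spt6, a histone chaperone that binds the elongating polymerase, had 87.4 and 90.4 CPM in JIL-1 null and 100.02 and 78.2 CPM in wild type (-0.00 ± 0.14), and TfIIS, which rescues backtracked polymerase, had 22.6 and 25.9 CPM in JIL-1 null and 21.9 and 24.05 CPM in wild type (0.08 ± 0.14). The SAGA subunits caught by the symbol gave 0.47 ± 0.20 for Spt3 and -0.09 ± 0.14 for Spt20. Among 23 related elongation genes measured, 2 rose and 1 fell. bin3, which encodes a methyltransferase of the 7SK RNA, fell, with 41.3 and 44.3 CPM in JIL-1 null glands, against 103 and 102 CPM in wild-type glands (-1.26 ± 0.10, edgeR adjusted p = 0.000692), a wide gap between genotypes and little spread within them. Hexim, listed as CG3508, which with 7SK RNA holds Cdk9 inactive, had 7.42 and 8.62 CPM in JIL-1 null glands, against 4.54 and 5.44 CPM in wild-type glands (0.68 ± 0.20, edgeR adjusted p = 0.0498), and was called in 2 of 12 alternatives, with adjusted p from 0.0236 to 0.314. Ctr9, listed as CG2469, of the Paf1 complex, had 105 and 98.8 CPM in JIL-1 null glands, against 79.4 and 75.9 CPM in wild-type glands (0.39 ± 0.10, edgeR adjusted p = 0.0302). The super elongation complex genes Su(Tpl), ear and lilli, at 0.35 ± 0.12, -0.13 ± 0.17 and -0.24 ± 0.10, did not pass. In all, 5 of the 47 related genes measured rose and 2 fell, 14.9% of them, beside 30.7% of all tested genes.

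Count ratios of 2 genes within a library do not depend on scaling between libraries. The 10 pairs were chosen after the values above were seen and are given without a test. RpII140 over RpII215 was 0.716 and 0.680 in JIL-1 null, against 0.475 and 0.599 in wild type. RpII18 over RpII215 was 0.203 and 0.179 in JIL-1 null, against 0.126 and 0.124 in wild type, and RpII15 over RpII215 was 0.203 and 0.178 in JIL-1 null, against 0.104 and 0.135 in wild type. These 3 subunits, the ones called above, were higher relative to the largest one in both JIL-1 null libraries than in either wild-type library. RpII33, which was not called, was not among the pairs. For the TFIIA genes, TfIIA-S over TfIIA-L was 0.403 and 0.396 in JIL-1 null, against 0.388 and 0.386 in wild type, the smallest difference of the 10. MED16 over MED14 was 0.372 and 0.332 in JIL-1 null, against 0.764 and 0.969 in wild type, while MED30 over MED14 was 0.267 and 0.267 in JIL-1 null, against 0.161 and 0.156 in wild type. Ssrp over dre4 was 0.503 and 0.525 in JIL-1 null, against 0.434 and 0.312 in wild type. NELF-B over Nelf-A was 0.730 and 0.876 in JIL-1 null, against 0.535 and 0.389 in wild type, Spt5 over Spt6 was 1.27 and 1.22 in JIL-1 null, against 0.911 and 1.04 in wild type, and Spt5 over spt4 was 5.21 and 4.94 in JIL-1 null, against 4.58 and 4.23 in wild type. The last 2 ratios moved less than that of NELF-B.

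**Figure D4:**
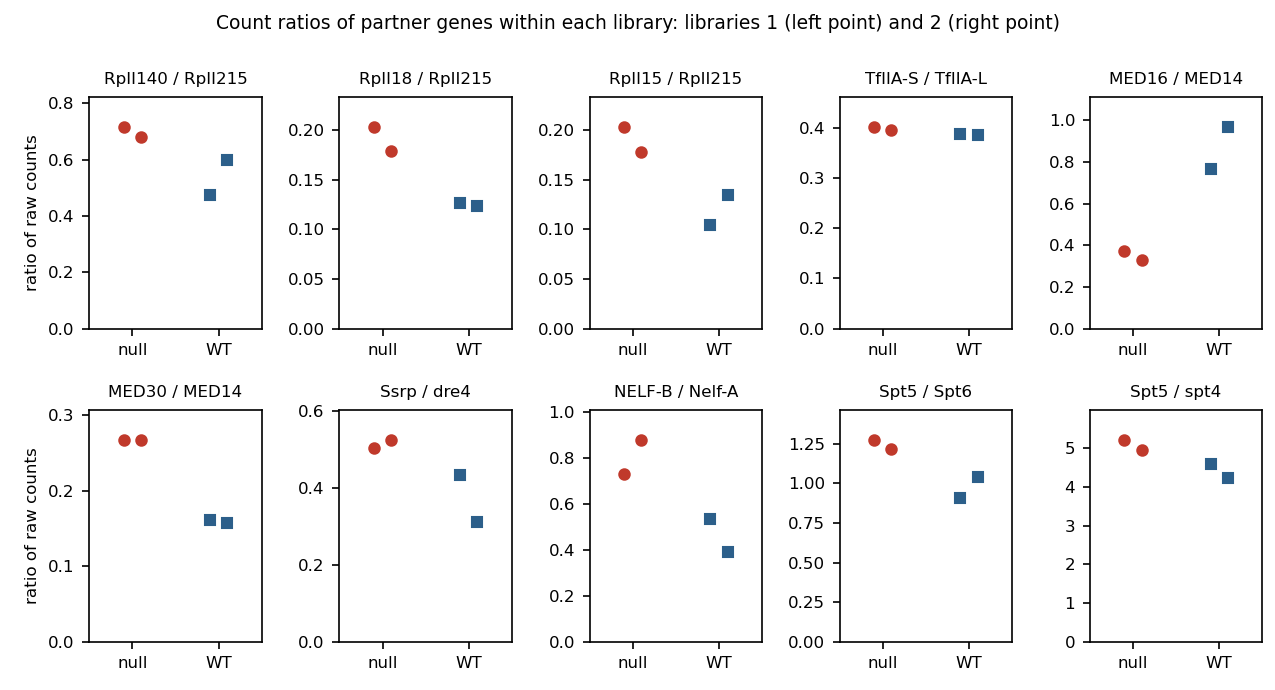
Ratio of raw counts of 2 genes within each library for 10 pairs, JIL-1 null as red circles on the left and wild type as blue squares on the right, each panel with its own axis from 0. MED16 over MED14 lies at 0.372 and 0.332 in JIL-1 null and at 0.764 and 0.969 in wild type, whereas TfIIA-S over TfIIA-L lies between 0.386 and 0.403 in all 4 libraries.

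The 59 genes are spread over the genome, with 9 on chromosome arm 2L, 7 on 2R, 18 on 3L, 19 on 3R and 6 on X. JIL-1 is found on all chromosomes and more densely on the male X. None of the 6 on X (RpII215, Taf8, MED18, MED22, NELF-B and Spt6) was called by edgeR, 0 of either direction, where an unadjusted p under 0.05 gave 2 higher and 0 lower, DESeq2 called 0 and limma-voom 1 higher. Of all tested genes on X 25.1% were called. By the authors' deposited table, 18 of the 59 had a false discovery rate under 0.05 with a fold above 1 and 3 with a fold below 1, or 35.6%, against 37.7% of all genes listed there (22.6% above 1 and 15.1% below). These include the 11 higher and 3 lower genes called here. The 7 further genes of the authors' deposited table were Taf11, Taf12, TfIIFbeta, MED22, MED4, NELF-B and Spt3.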

How the data were processed

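RNA-seq counts of 2 JIL-1 null and 2 wild-type salivary gland libraries were analysed. Reads were aligned with GSNAP, and builds BDGP5 and dm3 are named, as the submitters' processing notes state. How reads were counted, with which annotation and whether by strand, and which test the authors ran, is not given in the sources used here. The counts are whole reads per gene, as deposited by the authors. The RPKM (1 pooled value per genotype), the fold or ratio of JIL-1 null over wild type, the p-value and the false discovery rate were likewise deposited by the authors and are named so per the file headers.

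Counts were fitted with edgeR 4.0.16 in R 4.3.3 (TMM factors, glmQLFit and glmQLFTest, two-sided, prior count 0.125). The filter was filterByExpr, with a count minimum of 10 and a total minimum of 15, and left 7958 genes, over which p-values were adjusted by Benjamini-Hochberg and called at 0.05. Standard errors derive from the F statistic. The fit had 2 residual degrees of freedom and a biological coefficient of variation of 14.9%. Library totals of 6222322 to 11369094 counts gave the genes described between 30 and 1300 counts each. The procedure was also run on simulated counts whose spread followed the fitted trend alone. That run does not give its error rate on these libraries. Alternatives were RLE, upper quartile and total count scaling, no filter, a mean of at least 5 CPM, DESeq2 1.42.0, limma-voom (limma 3.58.1), a replicate block, and each library left out with the same genes fitted.

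The members and gene lists were chosen with earlier results of these data known. Genes with values in every library are those called, up to 8 in each direction per class by smallest adjusted p, and core members fixed by name. Other genes, the Mediator modules and the count ratios were chosen after their values were seen. Of 60 rows that match the symbols 1 is not reported here, and 6 of 53 related genes, MED23 and 4 testis TAFs were not analysed here. All 59 identifiers matched the later annotation BDGP6.54, which was used for current names, chromosome arms and exon overlap, with no coordinates printed. By it 25 of the 59 share exon bases with another gene, 3 of them at least 20%.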

Additional observations from a re-analysis of the deposited data

How the results depend on the processing

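With 1 library left out the fit had 3 libraries. Over these fits the members called higher ran from 0 to 11 and those called lower from 1 to 4, where all libraries gave 11 and 3. By class, higher calls ran from 0 to 3 for polymerase, 0 to 1 for general factors, 0 to 2 for Mediator and 0 to 4 for pausing and elongation; lower calls ran from 0 to 2 for general factors and 1 to 2 for Mediator. Related genes ran from 0 to 6 higher and 1 to 3 lower. The member median log2 fold change, 0.09 with all libraries, ran from 0.031 to 0.18, and that of JIL-1 from -0.75 to -0.48. With upper quartile scaling members had 1 lower call and a median of 0.23, general factors 4 higher and 0 lower, and related genes 11 higher. With total count scaling these were 1 lower, a median of 0.15, general factors 0 lower and related genes 8 higher. DESeq2 called 1 member higher, with polymerase 0, general factors 0 higher and 1 lower, Mediator 0 higher, pausing and elongation 1 and related genes 1 higher. Mediator had 1 higher call with RLE scaling, with no filter, at a mean of at least 5 CPM, with limma-voom and with the replicate block, and general factors had 1 lower call with no filter. The cause was not tested.

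The labels do not say whether libraries with the same replicate number were prepared together. Over the tested genes, same-numbered libraries deviated from their genotype means with a correlation of -0.0543, which shows no common pairing. Whether some genes share a batch by replicate number was not tested. With the replicate block 8 members were higher and 3 lower, of which 7 and 3 were also called without it; general factors then had 0 higher calls. The 59 genes had between 30 and 1300 counts in each library, and the effect of depth on their calls was not tested.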
